A study of Mus musculus with 6 samples.

Results

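The HoxB cluster is a run of homeobox genes on mouse chromosome 11, and 9 of its genes were read here in embryonic gut cells with and without forced expression of Barx1. All probe sets that name Hoxb1, Hoxb2, Hoxb3, Hoxb4, Hoxb5, Hoxb6, Hoxb7, Hoxb9 or Hoxb13 alone were taken, which gave 10 probe sets, and each gene was read from the brightest of its probe sets, by the mean of the 6 arrays. These are 9 of the 12393 genes measured. Hoxb4 was the 1 gene with more than 1 probe set, and 1 further probe set that is assigned to 2 genes of the cluster was not used. Hoxb8, which lies between Hoxb9 and Hoxb7, was not analysed here.

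The study hybridised total RNA from cultured gut cells of C57BL/6 mouse embryos at embryonic day 13.5 to Affymetrix 3′ arrays, in 3 groups of 2 biological replicates. Intestine of Rosa26+/Barx1;Bapx1+/Cre embryos, in which Cre made from the Bapx1 (Nkx3-2) locus switches on Barx1 from Rosa26, is called Barx1 intestine. The other groups were stomach and intestine of embryos with only one of those alleles, Rosa26+/Barx1 or Bapx1+/Cre, which the labels class as wild type without saying which allele each array carried. Every tissue was digested with collagenase-dispase and trypsin and its cells were grown for 3 days in medium with 20% fetal bovine serum. All 3 groups thus share the culture and the strain. The embryos of each group carried at least 1 engineered allele, which was not shown to be the same one. Bapx1-Cre acts only where that locus is active, and other cells of the gut wall remain in each culture. The labels do not say whether an array holds 1 embryo or a pool.

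HOX proteins are homeodomain transcription factors that give cells their position along the body axis. Within a cluster, genes nearer the Hoxb1 end are generally switched on earlier and further forward in the embryo than those nearer the Hoxb13 end, an order known as collinearity. In the gut, nested Hox domains in the mesenchyme mark its regions from foregut to hindgut, and HOX proteins bind DNA together with cofactors of the TALE homeodomain class, the PBX and MEIS proteins. BARX1 is another homeodomain factor, made in embryonic stomach mesenchyme.

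Barx1 itself separated the groups as the labels describe. It measured 8.66 and 8.79 on the log2 scale in Barx1 intestine, 9.82 and 9.79 in stomach, and 5.13 and 4.93 in intestine. The differences were 3.69 for Barx1 intestine minus intestine (adjusted p 0.000207), 4.78 for stomach minus intestine (adjusted p 0.000114) and -1.08 for Barx1 intestine minus stomach (adjusted p 0.0120, lost without Barx1 intestine replicate 1 or either stomach array, up to 0.108). Intestine lay inside the background range defined next, so the estimated differences from it may be too small. All levels here are log2 RMA values and all differences are log2 differences of group means from limma, with Benjamini-Hochberg adjusted p-values taken over all genes. A gene was called at an adjusted p under 0.05. The array medians lay between 6.93 and 6.98, and the replicates of intestine differed more over all genes (SD of the difference 0.232) than those of Barx1 intestine (0.199) or stomach (0.149). All 13 markers of mesenchyme and smooth muscle lay, in every group, above the range of a background list of genes specific to other organs, whose values ran from 2.87 to 5.86 over 25 measured genes with a median of 3.95.

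Of the 9 HoxB genes, 6 lay above that background range in every group: Hoxb2, Hoxb3, Hoxb4, Hoxb5, Hoxb6 and Hoxb9. Hoxb1, Hoxb7 and Hoxb13 lay inside it on all 6 arrays and were not shown to be expressed. The genes not shown to be expressed thus lay at both ends of the cluster and, at Hoxb7, between genes above background.

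**Figure D1:**
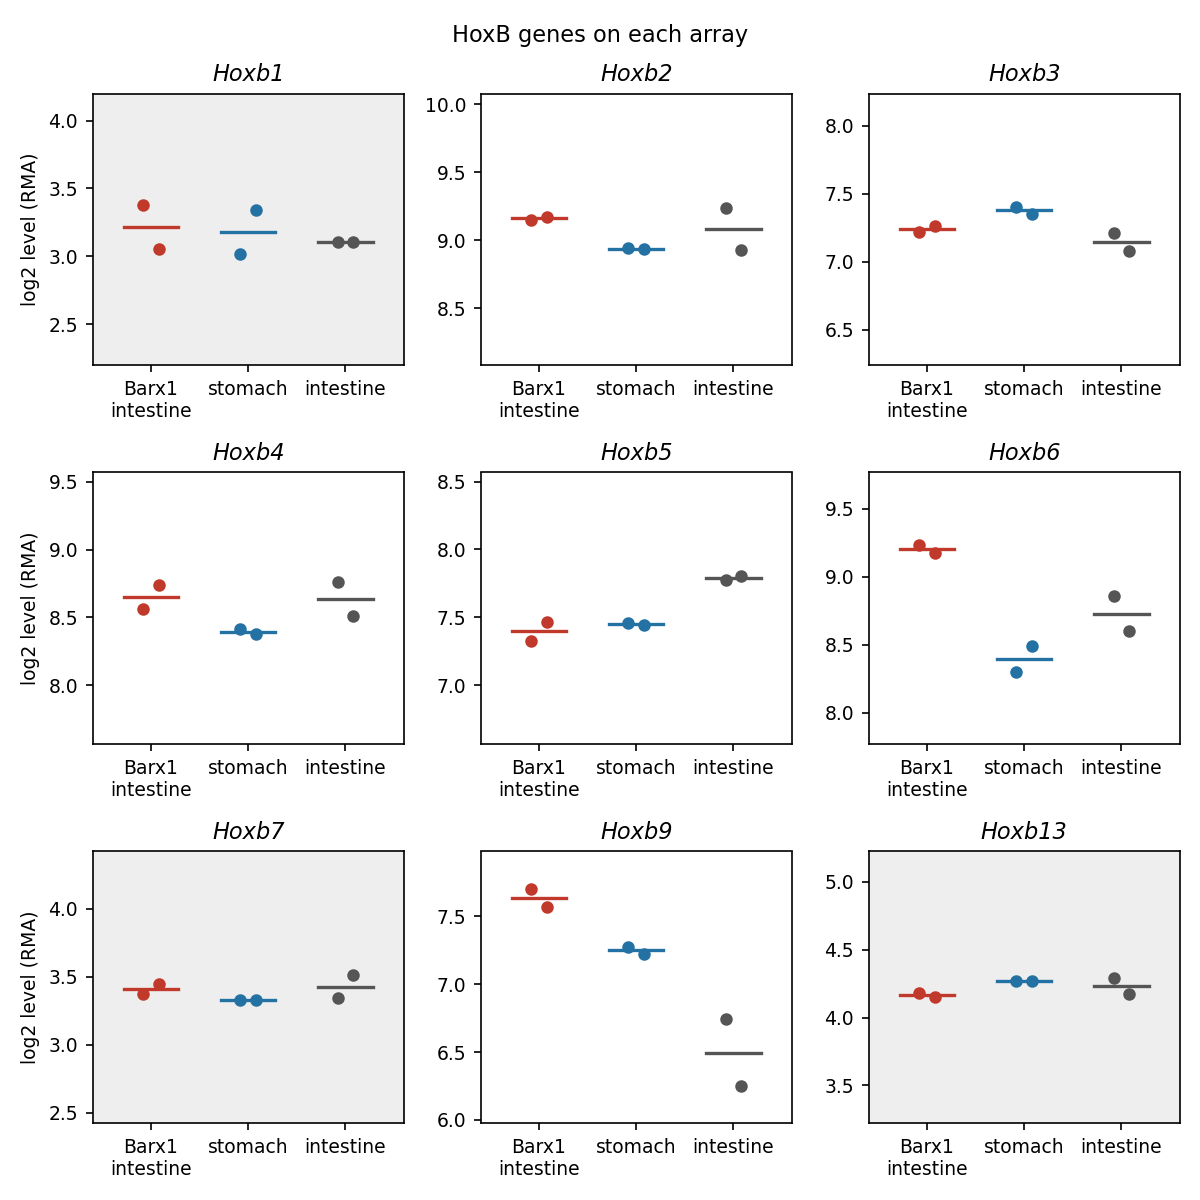
Log2 RMA level of each HoxB gene, in cluster order, on each array (points) with the mean of the 2 arrays of a group (line); panels span the same height of the log2 scale at different offsets, and grey marks levels up to the top of the background list, 5.86. Hoxb9 is high in Barx1 intestine (7.70 and 7.57) and low in intestine (6.74 and 6.25), Hoxb5 is highest in intestine (7.78 and 7.80), and Hoxb6 is highest in Barx1 intestine.

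Upstream sequence in the tables used here covers 2 of the 9 genes, Hoxb1 and Hoxb4, and is shown because it was searched for the kind of site through which HOX and PBX proteins act. The 250 bases before each RefSeq start in GRCm38.p6, on the plus strand, are chr11:96365508-96365757 for Hoxb1 and chr11:96318017-96318266 for Hoxb4. Capitals mark a match to TGATNNAT, the core of a HOX and PBX site, which was the only motif searched, on both strands.
Hoxb1: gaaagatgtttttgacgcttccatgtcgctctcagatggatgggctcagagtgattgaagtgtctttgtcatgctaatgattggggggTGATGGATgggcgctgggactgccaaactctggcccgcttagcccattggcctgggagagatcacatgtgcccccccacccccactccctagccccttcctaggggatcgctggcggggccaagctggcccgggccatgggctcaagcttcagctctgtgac
Hoxb4: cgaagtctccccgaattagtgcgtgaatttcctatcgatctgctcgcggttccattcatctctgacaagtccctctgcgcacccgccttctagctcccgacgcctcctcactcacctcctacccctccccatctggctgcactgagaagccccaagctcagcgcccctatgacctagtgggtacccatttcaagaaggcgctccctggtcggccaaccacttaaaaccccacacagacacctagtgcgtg
The Hoxb1 window held 1 match, TGATGGAT, on the gene's strand, and the Hoxb4 window held 0. Mouse Hoxb1 is known to be maintained in the hindbrain through sites of this kind, bound by HOXB1 with PBX. The motif is common: 2524 of 32851 RefSeq promoter windows of the same length (7.68%) held it.

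Hoxb9, which in mouse helps pattern the thoracic skeleton and was the most posterior HoxB gene above background, showed the widest range. It measured 7.70 and 7.57 in Barx1 intestine, 7.27 and 7.22 in stomach, and 6.74 and 6.25 in intestine. The order was the same on every array: both Barx1 intestine arrays were above both stomach arrays, and those were above both intestine arrays. The means were 7.63 ± 0.09 in Barx1 intestine, 7.25 ± 0.04 in stomach and 6.50 ± 0.35 in intestine (SD, n = 2 each). The intestine arrays were the most spread, yet did not overlap with either other group.

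Hoxb5, which in mouse acts in enteric neural crest cells and their neurons as well as in gut and lung mesenchyme, showed another pattern. Its levels were 7.33 and 7.47 in Barx1 intestine, 7.46 and 7.44 in stomach, and 7.78 and 7.80 in intestine. Intestine was high on both arrays, while Barx1 intestine and stomach overlapped. The means were 7.40 ± 0.10 in Barx1 intestine, 7.45 ± 0.01 in stomach and 7.79 ± 0.02 in intestine (SD, n = 2 each).

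Hoxb6, which in mouse is expressed in lateral plate mesoderm, followed neither of these. It measured 9.24 and 9.17 in Barx1 intestine, 8.30 and 8.49 in stomach, and 8.86 and 8.60 in intestine. Barx1 intestine was above both control tissues and stomach was below intestine, with no overlap between any of the 3 groups. The means were 9.20 ± 0.05 in Barx1 intestine, 8.39 ± 0.13 in stomach and 8.73 ± 0.18 in intestine (SD, n = 2 each).

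The expressed genes nearer the Hoxb1 end of the cluster varied less. Hoxb2, a hindbrain and facial nerve regulator in mouse, measured 9.15 and 9.17 in Barx1 intestine, 8.94 and 8.94 in stomach, and 9.23 and 8.93 in intestine, where the 2 replicates spanned the values of both other groups. Hoxb3, which shares hindbrain roles with its neighbours, measured 7.22 and 7.27 in Barx1 intestine, 7.40 and 7.36 in stomach, and 7.21 and 7.08 in intestine, with stomach above both. Hoxb4, best known in mouse for expanding blood stem cells when forced, measured 8.56 and 8.74 in Barx1 intestine, 8.42 and 8.38 in stomach, and 8.76 and 8.51 in intestine. Stomach was lowest for Hoxb4, and the intestinal groups overlapped. Its second probe set gave 6.82 and 6.85 in Barx1 intestine, 6.80 and 6.42 in stomach, and 6.97 and 6.83 in intestine. It was called in no comparison.

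The 3 genes inside the background range gave no pattern that could be read. Hoxb1 lay between 3.02 and 3.38 over the 6 arrays, Hoxb7, a gene of the mouse ureteric bud, between 3.33 and 3.51, and Hoxb13, a gene of the mouse tail and prostate, between 4.15 and 4.29. The deposited values of Hoxb1 were identical on both intestine arrays, as were those of Hoxb7 on both stomach arrays, so these groups have an SD of 0. The mean of the 6 expressed genes was 8.20 and 8.23 in Barx1 intestine, 7.97 and 7.97 in stomach, and 8.10 and 7.86 in intestine. On that mean Barx1 intestine lay above both other groups, which overlapped.

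The first comparison sets Barx1 intestine, with forced Barx1, against intestine. Barx1 intestine carried both engineered alleles and intestine did not, so effects of Barx1 and of the alleles themselves cannot be told apart. Hoxb9 was higher in Barx1 intestine by 1.14 ± 0.16 (SE; 95% confidence interval 0.73 to 1.54; adjusted p 0.0301), a fold of 2.20. Hoxb5 was lower by a log2 difference of -0.39 ± 0.07 (interval -0.56 to -0.22; adjusted p 0.0446), a fold of 0.763. Hoxb6 had a difference of 0.48 ± 0.11 (interval 0.20 to 0.75) that missed the threshold at an adjusted p of 0.0763, and passed it with a variance trend in the fit (adjusted p 0.0432). In these bulk samples, fewer cells of a type and less RNA per cell cannot be told apart.

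The remaining 6 genes did not pass in Barx1 intestine against intestine. Hoxb2 differed by 0.08 (interval -0.19 to 0.34), Hoxb3 by 0.09 (-0.08 to 0.27) and Hoxb4 by 0.01 (-0.25 to 0.28), so differences beyond these bounds were not compatible with the fit at 95%. The dim genes Hoxb1, Hoxb7 and Hoxb13 differed by 0.11, -0.02 and -0.06. In all, 1 HoxB gene was higher and 1 lower of 9 (22.2%), where 3.98% of all genes were called, 1.86% higher and 2.12% lower. Of genes above the background range in every group 4.65% were called, and 2 of the 6 HoxB genes among them. For 4 of the 9 HoxB genes the groups had no overlapping arrays, against 52.4% of all genes. The median difference of the 9 genes was 0.08, and that of all genes 0.02. The Hoxb9 call was lost without Barx1 intestine replicate 1 (adjusted p 0.155) or 2 (0.0870) and without either stomach array or in a fit of these 2 groups alone (0.0881), and the Hoxb5 call was lost in each of the 6 fits that left out 1 array (0.0718 to 0.164) and in the 2-group fit (0.119).

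The second comparison, stomach against intestine, gives the normal difference between the organs in these cultures and shares the intestine arrays with the first. The same 2 genes were called, in the same directions. Hoxb9 was higher in stomach by 0.75 ± 0.16 (SE; interval 0.35 to 1.16; adjusted p 0.0330), a fold of 1.68. Hoxb5 was lower in stomach, with a difference of -0.34 ± 0.07 (interval -0.51 to -0.17; adjusted p 0.0276), a fold of 0.791. Stomach lies in front of intestine along the gut, and Hoxb9 is among the more posterior genes of the cluster.

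Hoxb3 and Hoxb6 came nearest among the genes not called in stomach against intestine. Hoxb3 differed by 0.23 (interval 0.06 to 0.41; adjusted p 0.0777) and Hoxb6 by -0.33 (interval -0.61 to -0.06; adjusted p 0.0976). Hoxb4 differed by -0.24 (adjusted p 0.182) and Hoxb2 by -0.14 (adjusted p 0.406). The expressed genes thus had differences of either sign along the cluster, with no run of neighbours called in 1 direction. The count was 1 higher and 1 lower of 9 (22.2%), and 16.9% of all genes were called in this comparison, 8.86% higher and 8.09% lower, so the share is near that of genes at large. Among the 7954 genes above the background range in every group, 21.9% were called, and 2 of the 6 HoxB genes among them. No arrays of the groups overlapped for 6 of the 9, against 64.1% of all genes. The Hoxb9 call was lost without either Barx1 intestine array or in a 2-group fit (adjusted p 0.0606), without stomach replicate 1 (0.152) or stomach replicate 2 (0.142). The Hoxb5 call was lost without stomach replicate 1 (0.136) or 2 (0.150) and without intestine replicate 1 (0.0780) or 2 (0.0854).

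The third comparison sets Barx1 intestine against stomach, and thereby shows where the 2 groups with high Barx1 differed. Hoxb6 was higher in Barx1 intestine by 0.81 ± 0.11 (SE; interval 0.53 to 1.08; adjusted p 0.0253), a fold of 1.75, and was the only HoxB gene called. Hoxb9 differed by 0.39 ± 0.16 (interval -0.02 to 0.79; adjusted p 0.222), although its arrays did not overlap. Hoxb5 differed by -0.05 ± 0.07 (interval -0.22 to 0.12; adjusted p 0.686), so a gap in either direction larger than these bounds was not compatible with the fit at 95%. Hoxb4 and Hoxb2 had differences of 0.25 (adjusted p 0.223) and 0.22 (adjusted p 0.274), and Hoxb3 one of -0.14 (adjusted p 0.299).

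That is 1 of 9 HoxB genes (11.1%) in Barx1 intestine against stomach, where 5.2% of all genes were called, 2.56% higher and 2.64% lower, and 6.81% of those above the background range in every group. No arrays of the groups overlapped for 7 of the 9, against 58% of all genes. The Hoxb6 call was lost without Barx1 intestine replicate 1 (adjusted p 0.129) or 2 (0.0923) and without stomach replicate 1 (0.142) or 2 (0.121), while its difference stayed between 0.71 and 0.90.

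**Figure D2:**
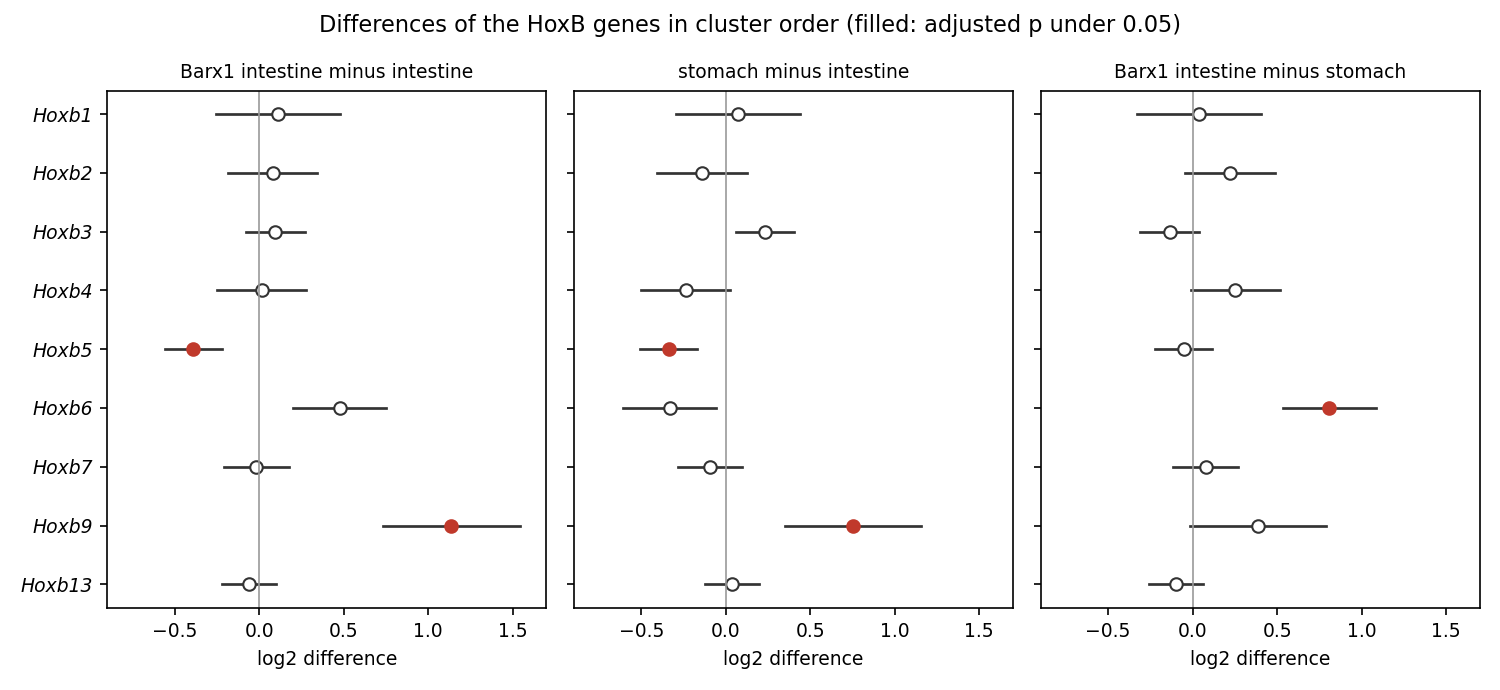
Log2 difference of group means for the 9 HoxB genes in cluster order, from Hoxb1 at the top to Hoxb13 at the bottom, in the 3 comparisons (points) with 95% confidence intervals (lines); filled points have an adjusted p under 0.05. Hoxb9 (1.14 and 0.75) and Hoxb5 (-0.39 and -0.34) are filled in both comparisons with intestine, which share the intestine arrays, and Hoxb6 (0.81) is filled in Barx1 intestine minus stomach.

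The paralogs of Hoxb9 in the other clusters, which arose by duplication of an ancestral cluster and carry the same number, did not share 1 pattern. Hoxa9 measured 7.46 and 7.24 in Barx1 intestine, 7.08 and 7.05 in stomach, and 5.73 and 5.10 in intestine. Its order matched that of Hoxb9 on every array. Intestine lay inside the background range, so the estimated differences from it may be too small. Hoxa9 was higher in Barx1 intestine than in intestine by an estimated 1.93 ± 0.21 (SE; interval 1.41 to 2.45; adjusted p 0.0179). It was higher in stomach than in intestine by an estimated 1.65 (interval 1.13 to 2.17; adjusted p 0.00882). Its difference between Barx1 intestine and stomach was 0.28 (adjusted p 0.465). The first call was lost without either Barx1 intestine array or either stomach array (adjusted p up to 0.113), and the second without either stomach array (up to 0.0678).

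Hoxc9 measured 7.80 and 7.73 in Barx1 intestine, 7.00 and 7.10 in stomach, and 7.74 and 7.41 in intestine. Stomach was the low group, so that the direction between stomach and intestine was opposite to that of Hoxb9. Hoxc9 was lower in stomach than in intestine, with a difference of -0.52 (adjusted p 0.0356), and higher in Barx1 intestine than in stomach by 0.71 (adjusted p 0.0358). Its difference between Barx1 intestine and intestine was 0.19 (adjusted p 0.387). Hoxd9 lay inside the background range, at 5.60 and 5.57 in Barx1 intestine, 5.68 and 5.46 in stomach, and 5.38 and 5.50 in intestine. It was not called. The Hoxc9 calls were lost in 5 of 6 fits that left out 1 array for stomach minus intestine, all but that without intestine replicate 2, and without either Barx1 intestine array or either stomach array for Barx1 intestine minus stomach (adjusted p up to 0.188).

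**Figure D3:**
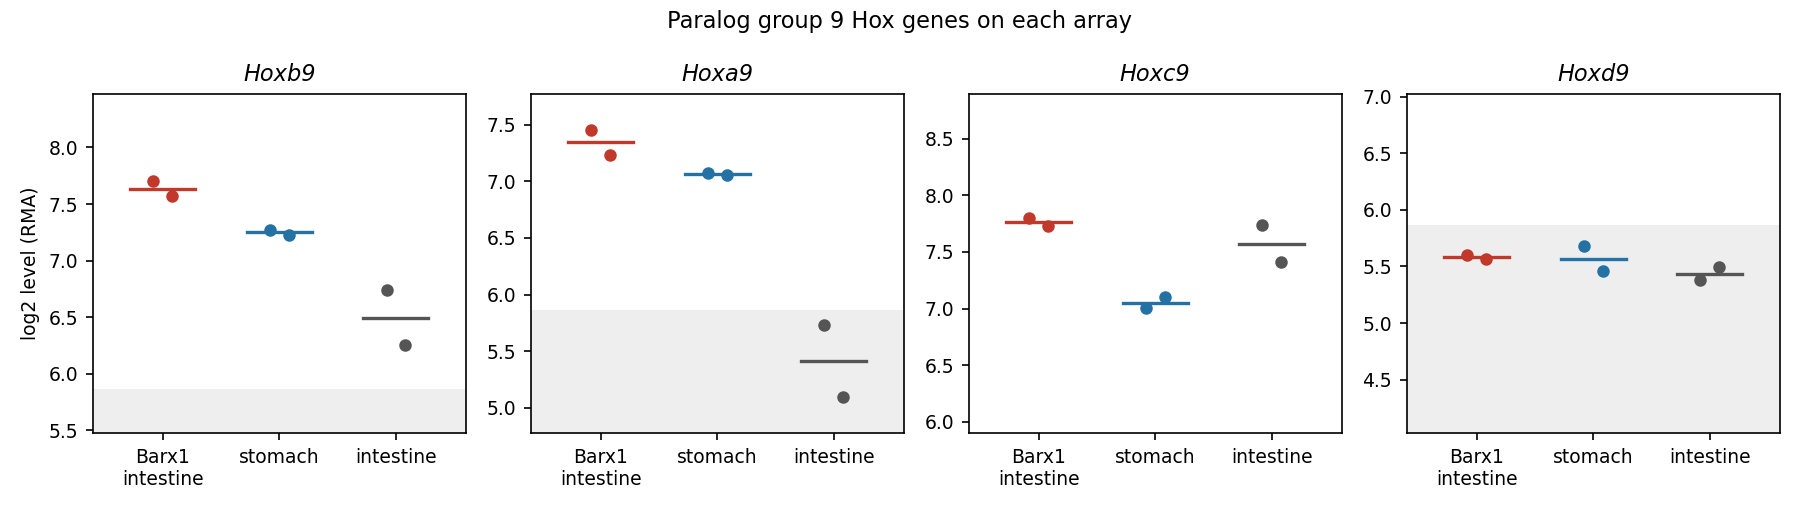
Log2 RMA level of Hoxb9, Hoxa9, Hoxc9 and Hoxd9 on each array (points) with group means (lines), on panels of equal height at different offsets; grey marks levels up to the top of the background list, 5.86. Hoxb9 and Hoxa9 are lowest in intestine, Hoxc9 is lowest in stomach (7.00 and 7.10), and Hoxd9 stays inside the grey range.

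The 3 paralogs of Hoxb5 and Hoxb6 that were measured, Hoxa5, Hoxc5 and Hoxc6, were not called in any comparison, and Hoxa6 was not analysed here. Hoxa5, a regulator of lung and stomach development in mouse, measured 9.77 and 10.06 in Barx1 intestine, 10.02 and 10.05 in stomach, and 9.92 and 9.87 in intestine, with intestine inside the span of Barx1 intestine. Hoxc5 lay inside the background range. Hoxc6 measured 6.60 and 6.77 in Barx1 intestine, 6.37 and 6.47 in stomach, and 6.50 and 6.52 in intestine, with a difference of 0.27 between Barx1 intestine and stomach (adjusted p 0.114).

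Over whole clusters, the calls ran in different directions. Of 9 HoxA genes measured, 2 were higher in Barx1 intestine than in intestine (Hoxa9 and Hoxa7), 3 were higher in stomach than in intestine (Hoxa7, Hoxa9 and Hoxa2), and 0 were called between Barx1 intestine and stomach (median difference -0.12, 4 at an unadjusted p under 0.05). Of 6 HoxC genes, 0 were called in Barx1 intestine against intestine (0 unadjusted), 3 were lower in stomach than in intestine (Hoxc8, Hoxc4 and Hoxc9) and 2 were higher in Barx1 intestine than in stomach (Hoxc8 and Hoxc9). Hoxc8 had the widest gap, at 8.77 and 8.46 in Barx1 intestine, 3.89 and 3.66 in stomach, and 8.52 and 8.14 in intestine, with stomach inside the background range. Of 7 HoxD genes, Hoxd8 alone was called, higher in Barx1 intestine than in intestine (0.88, adjusted p 0.0188) and than in stomach (1.25, adjusted p 0.0114). Above the background range in every group lay 4 of the 9 HoxA genes, 3 of the 6 HoxC genes and, of the 7 HoxD genes, Hoxd8 alone. An uncalled gene inside that range was not shown to be unchanged. Of all genes, 3.98% were called in Barx1 intestine against intestine, 16.9% in stomach against intestine and 5.2% in Barx1 intestine against stomach. The difference between clusters was not tested. Hoxa7 and Hoxc8 were called in stomach against intestine whichever array was left out, and Hoxc8 in Barx1 intestine against stomach was lost only without stomach replicate 2 (adjusted p 0.0582). Hoxa7 in Barx1 intestine against intestine and Hoxc4 were lost in all 6 such fits (up to 0.170 and 0.122), and Hoxa2 without either stomach array or intestine replicate 1 (up to 0.114). Hoxd8 was lost without Barx1 intestine replicate 1 or either stomach array in both comparisons, and against intestine also without intestine replicate 2 (up to 0.0667 against intestine and 0.107 against stomach).

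Genes next to the cluster gave a local reference. Of 11 measured neighbours on chromosome 11, 0 were called in Barx1 intestine against intestine (1 at an unadjusted p under 0.05). Of all genes, 3.98% were called in that comparison, 16.9% in stomach against intestine and 5.2% in Barx1 intestine against stomach. Copz2, which encodes a subunit of the coat of Golgi vesicles, was the 1 neighbour called in the other comparisons. It was higher in stomach than in intestine by 0.57 (adjusted p 0.00462). In Barx1 intestine it was lower than in stomach, with a difference of -0.46 (adjusted p 0.0180). Copz2 measured 7.98 and 7.96 in Barx1 intestine, 8.41 and 8.46 in stomach, and 7.87 and 7.85 in intestine, with stomach alone set apart. The first of these calls was lost without stomach replicate 2 (adjusted p 0.0508), and the second without any array of the groups compared (up to 0.158).

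Of the 8 TALE cofactors measured, 2 were higher in Barx1 intestine than in intestine and 4 were higher in stomach than in intestine. In Barx1 intestine against stomach 1 was lower. Of all genes, 3.98%, 16.9% and 5.2% were called in these comparisons, in that order. Meis1 was called in all 3 comparisons, at 9.44 and 9.36 in Barx1 intestine, 9.76 and 9.79 in stomach, and 8.64 and 8.63 in intestine. Barx1 intestine lay between the control tissues, with differences of 0.76 (adjusted p 0.00836) from intestine and -0.37 (adjusted p 0.0332) from stomach, and stomach exceeded intestine by 1.13 (adjusted p 0.00124). Pbx2 was higher than in intestine by 0.33 in Barx1 intestine (adjusted p 0.0423) and by 0.24 in stomach (adjusted p 0.0386), and both calls were lost in each of the 6 fits that left out 1 array (adjusted p up to 0.171 and 0.191). Meis2 (0.79, adjusted p 0.00966) and Pbx3 (0.41, adjusted p 0.0107) were higher in stomach than in intestine, and both were lost without either stomach array (up to 0.0792 and 0.0858). The Meis1 call in Barx1 intestine against intestine was lost without Barx1 intestine replicate 1 (adjusted p 0.0551), and that in Barx1 intestine against stomach without either array of either group (up to 0.212).

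Of 15 measured regulators that act on Hox genes, 8 lay above the background range in every group. In stomach against intestine 1 was higher and 2 were lower, where 16.9% of all genes were called. In Barx1 intestine against stomach 2 were higher and 2 lower, where 5.2% of all genes were called. In Barx1 intestine against intestine 2 were lower, where 3.98% of all genes were called. Both of these encode enzymes that make retinoic acid, a signal that activates anterior Hox genes in the embryo. Aldh1a3 measured 8.62 and 8.89 in Barx1 intestine, 7.76 and 7.75 in stomach, and 10.7 and 10.8 in intestine, with differences of -2.01 for Barx1 intestine minus intestine (adjusted p 0.00259) and -3.02 for stomach minus intestine (adjusted p 0.000418). Aldh1a1 measured 6.69 and 6.66 in Barx1 intestine, 5.60 and 5.85 in stomach, and 7.53 and 7.74 in intestine. Its differences were -0.96 for Barx1 intestine minus intestine (adjusted p 0.0204) and -1.91 for stomach minus intestine (adjusted p 0.00173). Stomach lay inside the background range for Aldh1a1, so its estimated differences from stomach may be too small. For both enzymes Barx1 intestine lay between the control tissues, above stomach by 1.00 (Aldh1a3, adjusted p 0.0143) and 0.95 (Aldh1a1, adjusted p 0.0173). The Aldh1a3 differences from intestine and that of Aldh1a1 between stomach and intestine were called whichever array was left out. Those from stomach were lost without Barx1 intestine replicate 1 or either stomach array, and for Aldh1a1 also without Barx1 intestine replicate 2 (up to 0.118 and 0.107).

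Rarb, a retinoic acid receptor gene that is itself a target of the signal, had a difference of -1.09 between Barx1 intestine and intestine (adjusted p 0.0614) and was lower in Barx1 intestine than in stomach, with a difference of -1.39 (adjusted p 0.0349). Egr2, a hindbrain activator of Hoxb2, was higher in stomach than in intestine by 2.16 (adjusted p 0.0108) and lower in Barx1 intestine than in stomach (-2.14, adjusted p 0.0257), while Hoxb2 was called in neither comparison. The Egr2 call in stomach against intestine was lost without either stomach array (up to 0.0799), and those of Egr2 and Rarb in Barx1 intestine against stomach without any array of these groups (up to 0.171 and 0.209). The Aldh1a1 call in Barx1 intestine against intestine was lost in 5 of 6 fits that left out 1 array, all but that without intestine replicate 1 (adjusted p up to 0.117). Of 22 genes for Polycomb, Trithorax and insulator proteins, which keep Hox clusters off or on, 0 were called in Barx1 intestine against intestine (9 at an unadjusted p under 0.05). Of all genes, 3.98% were called there, 16.9% in stomach against intestine and 5.2% in Barx1 intestine against stomach. In stomach against intestine, 3 of the 22 were higher (Bmi1, Ash2l and Phc1, by 0.31 to 0.36) and Jarid2 was lower (-0.40). In Barx1 intestine against stomach the dim Cbx7 alone was higher. Each of these 5 calls was lost without either stomach array (up to 0.165).

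Markers of other cell types also moved with the groups. For enteric neural crest and glia, a lineage in which Hoxb5 acts, 3 of 10 measured markers were lower in Barx1 intestine than in intestine. These were Erbb3, Ednrb and Sox10, and the same 3 were lower in stomach than in intestine. Of all genes, 2.12% were lower in Barx1 intestine than in intestine and 8.09% were lower in stomach than in intestine. Erbb3, a receptor of glial precursors, measured 6.31 and 6.50 in Barx1 intestine, 7.19 and 7.33 in stomach, and 8.79 and 9.22 in intestine. Its differences were -2.60 for Barx1 intestine minus intestine (adjusted p 0.00418) and -1.74 for stomach minus intestine (adjusted p 0.00426), and both were called whichever array was left out. Ednrb, the endothelin receptor of migrating crest cells, measured 5.20 and 5.98 in Barx1 intestine, 6.60 and 6.12 in stomach, and 8.37 and 9.15 in intestine. The Ednrb mean in Barx1 intestine, 5.59, lay inside the background range. Sox10, the defining factor of the lineage, measured 6.42 and 6.28 in Barx1 intestine, 6.91 and 6.77 in stomach, and 7.61 and 8.25 in intestine. Intestine was highest for these 3, as it was for Hoxb5, but not for the whole list. Phox2a, a factor of enteric neuron precursors, measured 6.53 and 6.79 in Barx1 intestine, 6.20 and 6.01 in stomach, and 6.11 and 6.00 in intestine. The neuronal genes Tubb3 (8.30 and 8.36) and Elavl4 (7.79 and 7.70) had their highest levels in stomach, against 7.90 and 7.39 (Tubb3) and 7.51 and 7.27 (Elavl4) in intestine. None of these was called against intestine. Phox2a came nearest, higher in Barx1 intestine than in intestine by 0.60 (adjusted p 0.0514). Tubb3 measured 6.01 and 6.83 in Barx1 intestine, with a difference of -1.22 from intestine (adjusted p 0.0840). Ednrb and Sox10 were lost without either stomach array in both comparisons and, in Barx1 intestine against intestine, also without either Barx1 intestine array (adjusted p up to 0.131), and Ednrb there also without intestine replicate 2.

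The mean level of the 10 crest markers was 6.21 and 6.55 in Barx1 intestine, 6.75 and 6.65 in stomach, and 7.19 and 7.30 in intestine. Of these, 6 lay above the background range in every group. In Barx1 intestine against stomach, where Hoxb5 was not called, 2 were lower (Tubb3, -1.91, and Erbb3, -0.86), and both were lost without Barx1 intestine replicate 1 or either stomach array, Erbb3 also without Barx1 intestine replicate 2 (up to 0.194 and 0.240). Of all genes, 2.64% were lower in Barx1 intestine than in stomach. The part of neural crest cells and glia in the Hoxb5 result was not tested.

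**Figure D4:**
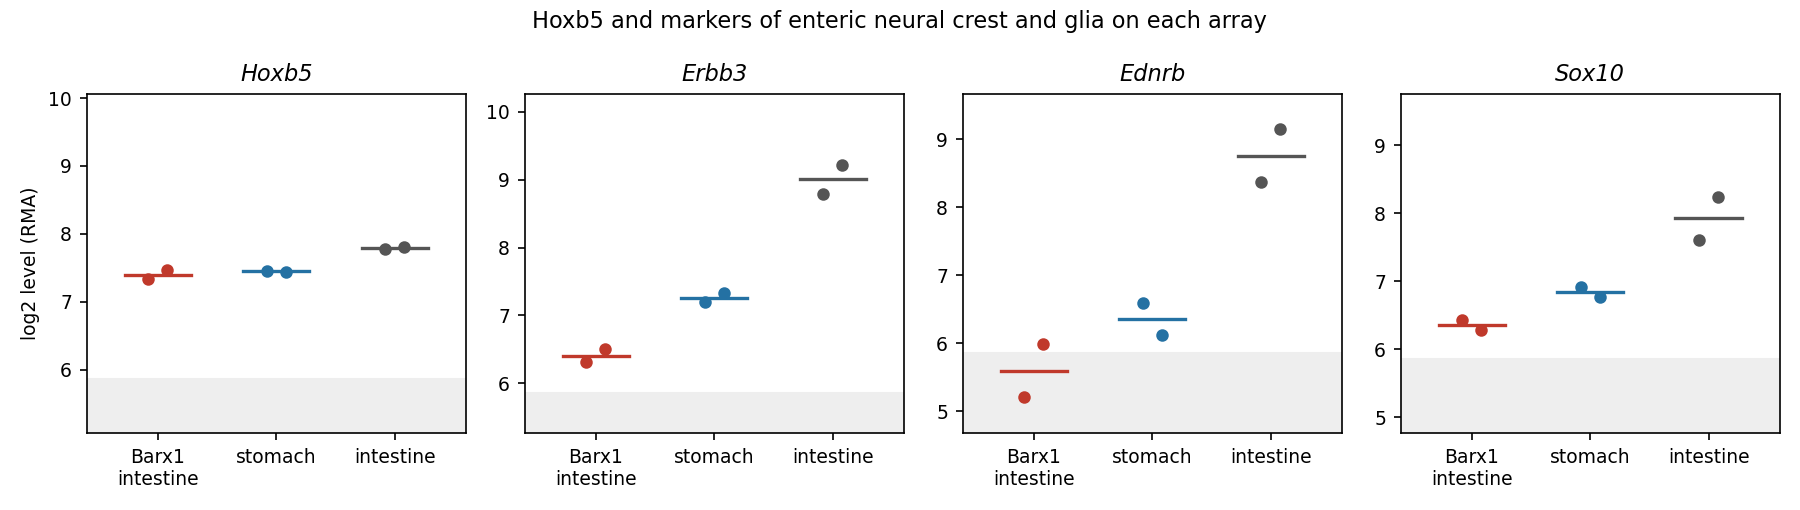
Log2 RMA level of Hoxb5 and of Erbb3, Ednrb and Sox10, the 3 of 10 measured enteric neural crest and glia markers that were called in both comparisons with intestine, on each array (points) with group means (lines), on panels of equal height at different offsets; grey marks levels up to the top of the background list, 5.86. All 4 genes are highest in intestine, and the gap is far smaller for Hoxb5 (7.78 and 7.80 in intestine) than for Erbb3 (8.79 and 9.22 in intestine).

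Leukocyte markers had a mean level of 7.00 and 7.84 in Barx1 intestine, 8.45 and 8.18 in stomach, and 8.88 and 9.87 in intestine. In Barx1 intestine against intestine 5 of 12 were lower, against 2.12% of all genes. All 12 reached an unadjusted p under 0.05, as did 2924 of the 12393 genes measured. The median difference of the 12 markers was -1.84. By limma 0 were called in stomach minus intestine (median -1.02, 7 at an unadjusted p under 0.05), against 16.9% of all genes. In Barx1 intestine minus stomach 0 were called (median -0.95, 5 unadjusted), against 5.2% of all genes. The 5 calls were lost without either Barx1 intestine array or either stomach array (adjusted p up to 0.186). Endoderm epithelium markers had a mean level of 7.44 and 6.87 in Barx1 intestine, 6.50 and 7.12 in stomach, and 8.35 and 7.42 in intestine. Of 13, 7 lay above the background range in every group. Against intestine, 1 of the 13 was lower in Barx1 intestine and 2 were lower in stomach, against 2.12% and 8.09% of all genes. Between Barx1 intestine and stomach, 0 were called (0 unadjusted). Spint1 was lost without either stomach array in both comparisons with intestine, and for Barx1 intestine also without either Barx1 intestine array (adjusted p up to 0.0795), and Foxa1 in stomach minus intestine in 5 of 6 such fits, all but that without intestine replicate 2 (up to 0.180). Within intestine, replicate 2 was the lower array for Hoxb2, Hoxb3, Hoxb4, Hoxb6 and Hoxb9, but not for Hoxb5. By mean level it was also the lower array for epithelium markers and the higher one for leukocyte markers. Endothelium markers had 2 of 8 lower in Barx1 intestine than in intestine and 3 lower in stomach than in intestine. In Barx1 intestine against stomach 2 were higher. For all genes the shares were 2.12% lower, 8.09% lower and 2.56% higher, in that order. Only 2 of the 8, Esam and Kdr, lay above the background range in every group. The called Pecam1 and Emcn lay inside that range on every array. Pecam1 in Barx1 intestine minus intestine and Emcn in Barx1 intestine minus stomach were lost in all 6 fits that left out 1 array (up to 0.132 and 0.209), and Esam in Barx1 intestine minus intestine without either Barx1 intestine array (up to 0.0653). Kdr was lost in Barx1 intestine minus stomach without any array of these groups (up to 0.158), and Kdr and Pecam1 in stomach minus intestine without stomach replicate 2 (up to 0.0713). Of 3 mesothelium markers, Wt1 was higher and Msln lower in stomach than in intestine, where 16.9% of all genes were called. Only Wt1 lay above the background range in every group, and Msln lay inside it. In the other comparisons 0 were called (1 unadjusted for Barx1 intestine minus intestine and 2 for Barx1 intestine minus stomach). Wt1 was lost without any stomach or intestine array (up to 0.121), and Msln without either stomach array or intestine replicate 1 (up to 0.0961). The part of all these cells in the HoxB results was not tested.

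Markers of mesenchyme and smooth muscle, the cells in which gut Hox domains are best known, had mean levels of 11.0 and 11.2 in Barx1 intestine, 11.5 and 11.6 in stomach, and 11.3 and 11.3 in intestine. Of these 13, 1 was lower in Barx1 intestine than in intestine, and 4 were higher and 1 lower in stomach than in intestine. In Barx1 intestine against stomach, 1 was higher and 4 lower. Of all genes, 3.98%, 16.9% and 5.2% were called in these comparisons, in that order. The calls against intestine of Foxf2 in Barx1 intestine and of Cnn1 in stomach were lost in all 6 fits that left out 1 array (adjusted p up to 0.149 and 0.184), and that of Col1a1 in stomach without either stomach array (up to 0.0786). All 5 calls in Barx1 intestine minus stomach were lost without Barx1 intestine replicate 1 or either stomach array (up to 0.166), and those of Des and Foxf2 also without Barx1 intestine replicate 2.

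The genes whose levels ran most closely with each called HoxB gene were ranked by Pearson correlation over the 6 arrays, among about 1636 candidates whose group means spanned at least 0.5. The arrays share their groups, so the correlation mainly restates the order of 3 means. For Hoxb9 the nearest were Thnsl1 (r = 0.993), Fancg (0.993), Tll1 (0.989), Niban1 (0.986) and Klhdc8a (0.985). For Hoxb5 they were Cnp (0.994), Apobr (0.993), Dio2 (0.993), Ifitm6 (0.992) and Tapbp (0.992), of which Cnp encodes an enzyme of myelinating glia and Tapbp a protein of antigen loading. For Hoxb6 they were Zik1 (0.996), Tmem184b (0.988), Cdk18 (0.979), Strbp (0.978) and Aard (0.975). A correlation over 0.95 was reached by 22 candidates for Hoxb9, 74 for Hoxb5 and 15 for Hoxb6.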

How the data were processed

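The authors deposited log2 levels of 22690 probe sets on 6 arrays, made with RMA per the submitters' processing notes. Its version was not given in the sources used here, nor was a genome build. RMA brings arrays to a common distribution, which removes shifts shared by most genes. Groups came from the labels. Platform annotation named 1 gene for 20380 probe sets, several for 691 and none for 1606, which include controls without a gene name. Control probe sets that name 1 gene were left out of these counts. Identifiers of 20351 matched the reference list of genes, and 0 symbols changed.

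Means of the 3 groups were fitted together over all 6 arrays with limma 3.58.1 (lmFit, eBayes) in R 4.3.3 with the package data.table (1.17.8), on 12393 genes, with 3 residual and 2.58 prior degrees of freedom. The fit was tested on simulated data. The number of arrays limits the precision. Intervals are 95% and not adjusted. The HoxB genes, gene lists and tests were chosen with earlier results of these data known. Named were every HoxB gene, Barx1, up to 4 members of a list with the smallest p per comparison, paralogs of called HoxB genes and the 5 most correlated genes of each. Elavl4 and Cnn1 were named after their values were seen. Genes of other organs served as background, and 0, 2 and 0 of its 25 were called by limma in the 3 comparisons (3, 4 and 4 at an unadjusted p under 0.05). Alternatives were other probe set choices, a filter on dim genes, centring, quantile normalization, other variance priors, 2-group fits, a replicate block, single arrays left out and other thresholds.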

Additional observations from a re-analysis of the deposited data

How the results depend on the processing

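No called HoxB difference changed direction under any alternative. At the threshold of 0.05, only the replicate block, the 2-group fit and the fits without 1 array ended a call. With 2 arrays per group the number of arrays limits every call. Fits without 1 array leave a lone sample that is assumed to vary like the other groups.

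In Barx1 intestine minus intestine, 2 HoxB genes were called, against 0 in a fit of only the 2 groups (3 at an unadjusted p under 0.05), 0 at a threshold of 0.01 and 0 to 1 without 1 array. Over all genes the 493 calls became 1037 with a variance trend, 50 in the 2-group fit, 40 at 0.01, 1316 at 0.10 and 50 to 466 without 1 array. In stomach minus intestine, 2 HoxB calls became 1 in the 2-group fit, 0 at 0.01 (4 unadjusted), 4 at 0.10 and 0 to 1 without 1 array, and the 2100 calls over all genes became 512 at 0.01, 3310 at 0.10 and 281 to 1692 without 1 array. In Barx1 intestine minus stomach, 1 HoxB call became 0 at 0.01 (1 unadjusted) and 0 to 1 without 1 array, and the 644 calls became 1189 with a variance trend, 11 at 0.01, 1516 at 0.10 and 0 to 727 without 1 array (1906 unadjusted for the fit with 0 limma calls, that without stomach replicate 2). The cause was not tested.

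The replicate numbers are shared between groups, and the correlation of same-numbered deviations was 0.203 in Barx1 intestine minus intestine, -0.216 in stomach minus intestine and -0.0615 in Barx1 intestine minus stomach. As this is not positive throughout, with 2 pairs each and no label that ties the numbers, the arrays were taken to share only a number. With the replicate block, HoxB calls were 1 in Barx1 intestine minus intestine (Hoxb5 at an adjusted p of 0.0719), 2 in stomach minus intestine and 0 in Barx1 intestine minus stomach (Hoxb6 at 0.0520; 2 unadjusted), and calls over all genes were 267 in Barx1 intestine minus intestine and 337 in Barx1 intestine minus stomach. Crossed stomach numbers, added after seeing the data, gave 3 HoxB calls and 1879 over all genes in stomach minus intestine.

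Signs turned only for differences that were not called. With the mean of probe sets Hoxb4 was -0.028, and with median centring Hoxb7 was 0.014, in Barx1 intestine minus intestine. The other turns came from leaving out 1 array, over which the log2 difference ran in Barx1 intestine minus intestine from -0.055 to 0.27 for Hoxb1, -0.074 to 0.23 for Hoxb2, -0.11 to 0.14 for Hoxb4 (-0.076 without Barx1 intestine replicate 2) and -0.10 to 0.069 for Hoxb7 (0.020 without Barx1 intestine replicate 1). In stomach minus intestine it ran from -0.090 to 0.23 for Hoxb1, -0.30 to 0.012 for Hoxb2 and -0.022 to 0.097 for Hoxb13. In Barx1 intestine minus stomach it ran from -0.13 to 0.20 for Hoxb1 (-0.12 without stomach replicate 1) and -0.12 to 0.017 for Hoxb5.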
